A study of Homo sapiens with 6 samples.

Results

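The fibrillar collagens are the chains that build banded collagen fibrils, and 9 of their genes were followed here: the chains of type I (*COL1A1*, *COL1A2*), type II (*COL2A1*), type III (*COL3A1*), type V (*COL5A1*, *COL5A2*, *COL5A3*), and type XI collagen (*COL11A1*, *COL11A2*). They were taken by gene name from a table of 60623 genes, and each name matched 1 gene. TC28a2 cells, an immortalized human chondrocyte line, received either 2 μM mocetinostat, an inhibitor of class I histone deacetylases, or the solvent DMSO for 24 hours, and 3 samples of each treatment were sequenced as single reads. Total counts lay between 4873426 and 11031132 in DMSO-treated samples and between 1619344 and 5089542 in mocetinostat-treated samples.

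Each fibrillar collagen is a rod of 3 chains wound around one another, which needs a glycine at regular steps along each chain. Type I collagen of bone, skin, and tendon usually joins α1(I) and α2(I) chains, type III is a trimer of a single chain found with type I in elastic tissues, and type V chains sit inside type I fibrils and control their width. Type II collagen forms the fibrils of cartilage, with type XI in the role that type V has elsewhere. Chondrocytes that are grown flat on plastic are known to lose the type II and XI program and to take up that of type I and III, and the study asked how mocetinostat acts on gene expression in joint cells.

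After mocetinostat treatment, the cartilage chains *COL2A1* and *COL11A2* rose, as did *COL1A2*, *COL5A1*, and *COL5A3*, while *COL3A1* and *COL5A2* fell under TMM scaling, the normalization used throughout. *COL1A1*, the chain with the most reads in every sample, differed by -13.5% with overlapping groups, and its direction turned when each library was scaled to *GAPDH*. By the quasi-likelihood test of edgeR, adjusted after Benjamini and Hochberg over 13966 genes, 8 of the 9 chains could be tested, and 5 were higher and 3 lower at an adjusted p under 0.05, where 32.9% and 31.4% of all genes tested were higher and lower. Of these, 3 chains were upregulated by a log2 fold change over 1, against 20.2% of all genes, and 1 was downregulated by as much, against 8.18%. The median log2 fold change was 0.74 over the 8 chains and -0.00 over all genes tested. These counts and the median include *COL1A2* and *COL2A1*, which lay as low as 1.92 and 1.46 CPM with DMSO. The filter on low counts kept both only with the mocetinostat-treated samples, where they were higher. TMM-normalized levels did not overlap between treatments in 5 of the 8 chains that were higher and 2 that were lower, against 33.7% and 32.8% of all genes, and *COL11A1* was left out by the expression filter.

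**Figure D1:**
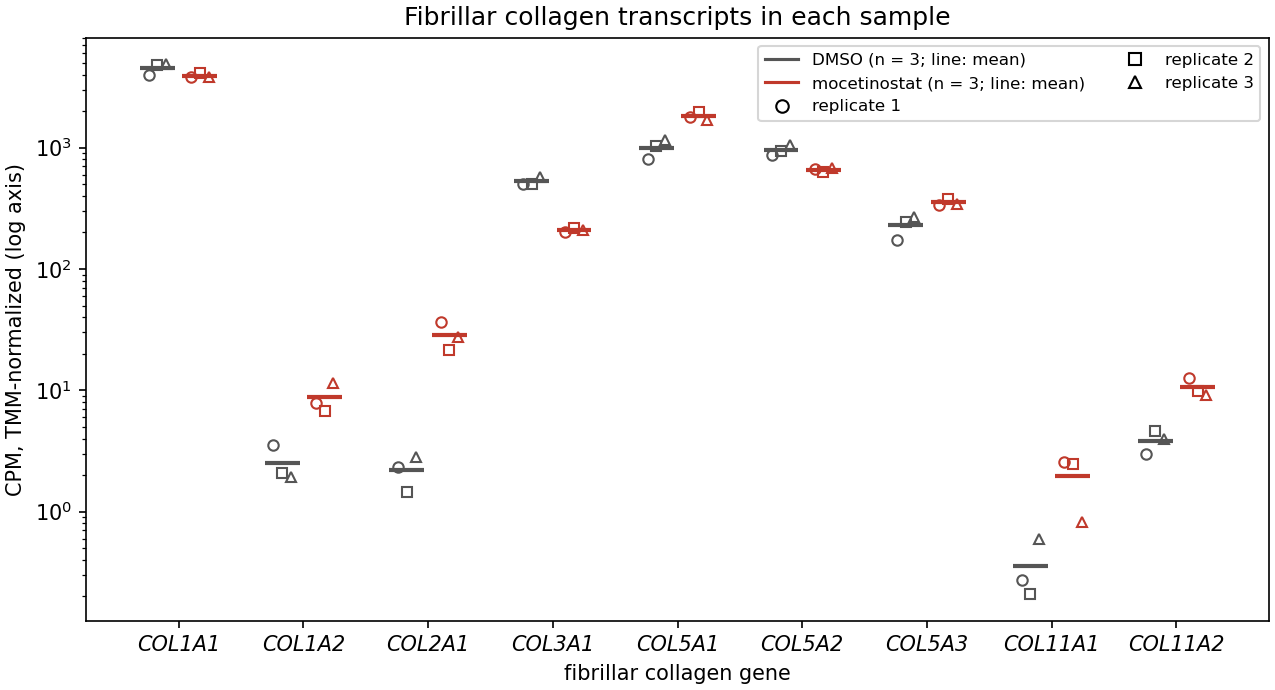
TMM-normalized CPM (log axis) of the 9 fibrillar collagen genes in the 3 DMSO-treated and 3 mocetinostat-treated samples, with marker shape giving the replicate and the line the mean. The 5 chains *COL1A1*, *COL3A1*, *COL5A1*, *COL5A2*, and *COL5A3* lie above 100 CPM in every sample and the other 4 lie below 40 CPM, and only *COL1A1* has treatments that overlap.

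Levels are given as CPM, counts relative to the TMM-scaled library size, unless raw counts are named. DMSO replicate 1, the deepest library, differed somewhat more from the other DMSO-treated samples than they did from each other. With every library thinned to the same total, a chi-square of counts per degree of freedom was 2.04 and 2.62 against replicates 2 and 3, 1.52 between those, and 1.46 to 1.96 between mocetinostat-treated samples. It was the lowest DMSO-treated sample for *COL1A1*, *COL5A1*, *COL5A2*, *COL5A3*, *COL11A2*, and *COL27A1*, so their changes are also given without it. The housekeeping gene *GAPDH* was itself lower after mocetinostat, from 3039 ± 89.8 to 2111 ± 76.3 CPM (SD, n = 3), and scaling to it moved the median log2 fold change of all genes up by 0.54. Changes under *GAPDH* scaling are to be read against that shift. Counts come from whole cultures, in which fewer cells making a chain and less RNA per cell cannot be told apart.

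Among the genes that mark cartilage cells, *SOX9* was present at 95.5 to 121.6 CPM with DMSO and 163.3 to 189.7 CPM with mocetinostat, whereas *CNMD* (chondromodulin) had 0 counts in all 6 samples. Of 12 chondrocyte markers, which include *COL2A1* and *COL11A2*, all 8 that were tested were higher after mocetinostat. *SOX6*, *COL9A1*, *CNMD*, and *EPYC* were not tested. With DMSO, *SOX5* and *COMP* were at most 0.737 and 1.18 CPM. They passed the expression filter only through the mocetinostat-treated samples, so that their rise was built in. The summed level of the 12 markers was 116.6 to 141.2 CPM with DMSO and 261.5 to 301.5 CPM with mocetinostat. The 9 fibroblast markers, which include *COL1A1*, *COL1A2*, and *COL3A1*, summed to between 4770 and 5734 CPM with DMSO and between 4372 and 4762 CPM with mocetinostat, most of it *COL1A1*. Of these, 8 were tested and split, with *COL1A2*, *PDGFRA*, *THY1*, and *LUM* higher and *COL1A1*, *COL3A1*, and *PDGFRB* lower. Of the lists for other cell types, the 4 epithelial markers rose from between 899.5 and 1083 CPM to between 1935 and 1987 CPM, with all 4 higher and with *EPCAM* and *CDH1* below 1 CPM in every DMSO-treated sample, and the 4 endothelial markers went from between 5.518 and 7.497 to between 18.59 and 24.04 CPM, with 2 of 3 tested higher. The 5 markers of hypertrophic chondrocytes summed to between 61.5 and 69.9 CPM with DMSO and between 118.5 and 127.7 CPM with mocetinostat, but the 2 that were tested went opposite ways, *MMP13* up by 4.39 and *RUNX2* at -1.31 (edgeR adjusted p = 4.98e-34 and 2.95e-12). The 4 leukocyte markers summed to at most 2.29 CPM in any sample, with *CD3E* at 0 counts. Marker counts are to be read against all genes tested, of which 32.9% were higher and 31.4% lower. Like *SOX5* and *COMP*, some markers were too low with DMSO to pass the filter without the mocetinostat-treated samples. Among them were *COL1A2*, *COL2A1*, *MATN3*, *PDGFRA*, *LUM*, *MMP13*, *EPCAM*, *CDH1*, *PECAM1*, and *VWF*. The part of these marker changes in the collagen values was not tested.

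The genes share an exon plan that the selection by name did not use. In GENCODE release 44, the transcript chosen to stand for each gene (MANE Select) has between 51 and 67 coding exons. Of the 528 coding exons of the 9 genes, 239 (45.3%) are exactly 54 bases long, the length that encodes 6 Gly-X-Y triplets, against 0.653% of 190900 coding exons of all genes. A length that is a multiple of 9 bases, or whole triplets, was found in 81.8% of their coding exons and in 14.3% of all coding exons. The share was highest in the type I gene *COL1A2*, at 88.5%, and lowest in *COL5A3*, at 74.6%. Despite this common plan, reads can tell the genes apart: no run of 50 bases was shared between the transcripts of any 2 of the 9, and the share of 50-base runs found in transcripts of any other gene was 0.343% for *COL1A1*, 0.0711% for *COL5A1*, 1.21% for *COL5A3*, and 0% for the other 6.

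*COL1A1* (ENSG00000108821, chromosome 17 of GRCh38 from 50184101 to 50201632, minus strand) encodes the α1 chain of type I collagen. DMSO replicates 1 to 3 gave 44092, 22916, and 33052 raw counts, and mocetinostat replicates 1 to 3 gave 19427, 6701, and 9148. The normalized levels were 3989, 4772, and 4871 CPM with DMSO and 3851, 4153, and 3791 CPM with mocetinostat. DMSO replicate 1 fell inside the range of the treated samples, so the groups overlapped. The mean went from 4544 ± 483.3 to 3932 ± 193.7 CPM (mean ± SD of 3 samples), a log2 difference of -0.21 (95% confidence interval -0.33 to -0.09, edgeR adjusted p = 0.00169). This difference missed the threshold when every library was thinned to the depth of the smallest (-0.14, adjusted p = 0.0548) and when only genes with 10 or more counts in each library were kept (-0.13, adjusted p = 0.0598), and it turned to 0.31 (adjusted p = 0.00101) under *GAPDH* scaling. Without DMSO replicate 1 it was -0.31.

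*COL1A2* (ENSG00000164692, chromosome 7 from 94394895 to 94431227, plus strand) encodes the α2 chain that usually joins *COL1A1* products, and it was nearly silent in these cells. The DMSO-treated samples gave only 39, 10, and 13 counts and the mocetinostat-treated samples 40, 11, and 28, or 3.53, 2.08, and 1.92 CPM against 7.93, 6.82, and 11.6 CPM. Every treated sample lay above every control, although no library held more than 40 reads. The rise was from 2.51 ± 0.887 to 8.78 ± 2.51 CPM (mean ± SD of 3 samples), a log2 difference of 1.73 (standard error 0.37, edgeR adjusted p = 4.33e-05), and all 15 alternative settings kept its direction and an adjusted p under 0.05.

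The α1(I) and α2(I) transcripts were therefore far from equal. The raw count of *COL1A1* was 1131, 2292, and 2542 times that of *COL1A2* under DMSO and 485.7, 609.2, and 326.7 times under mocetinostat, in the order of the replicates. The ratio was lower in all 3 treated samples than in any control, by 4.05-fold on average (geometric means). In an exact two-sided permutation test this gave p = 0.1, which is the smallest that 3 samples against 3 allow, and p = 0.125 after Benjamini-Hochberg adjustment over the 5 ratios compared. A ratio of this kind is taken within a library and does not depend on scaling between libraries.

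*COL3A1* (ENSG00000168542, chromosome 2 from 188974373 to 189012746, plus strand) encodes the single chain of type III collagen. It held 5583, 2420, and 3902 counts with DMSO, or 505.1, 503.9, and 575.1 CPM, and 1010, 349, and 503 counts with mocetinostat, or 200.2, 216.3, and 208.5 CPM. The treated samples lay close together and far under the controls. The fall was from 528.0 ± 40.7 to 208.3 ± 8.02 CPM (mean ± SD of 3 samples), a log2 difference of -1.35 (95% confidence interval -1.51 to -1.19, edgeR adjusted p = 1.1e-24), and it was -0.82 (adjusted p = 3.91e-10) under *GAPDH* scaling. The ratio of *COL3A1* to *COL1A1* counts was 0.127, 0.106, and 0.118 with DMSO and 0.0520, 0.0521, and 0.0550 with mocetinostat, 2.19-fold lower without overlap (exact permutation p = 0.1, adjusted p = 0.125).

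*COL5A2* (ENSG00000204262, chromosome 2 from 189031898 to 189225312, minus strand) lies next to *COL3A1*. The genes point toward each other, 19151 bases apart, with 0 protein-coding genes between them. *COL5A2* encodes the α2(V) chain and stood at 869.8, 938.3, and 1058 CPM under DMSO, compared with 664.5, 629.0, and 679.7 CPM under mocetinostat. The treated samples were again all lower. The log2 fold change was -0.54 (95% confidence interval -0.68 to -0.40, edgeR adjusted p = 5.93e-10), and -0.62 without DMSO replicate 1. Under *GAPDH* scaling it was -0.01 (adjusted p = 0.922), so that this fall, unlike that of its neighbour, was no longer called.

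The other type V chains went up. *COL5A1* (ENSG00000130635, chromosome 9 from 134641803 to 134844843, plus strand), the α1(V) chain present in most type V molecules, held 811.7, 1042, and 1154 CPM with DMSO and 1793, 1950, and 1699 CPM with mocetinostat. *COL5A3* (ENSG00000080573, chromosome 19 from 9959561 to 10010504, minus strand), a rarer α3(V) chain, held 172.2, 242.8, and 270.0 CPM with DMSO and 339.6, 381.1, and 341.5 CPM with mocetinostat. All treated samples exceeded all controls for both genes. *COL5A1* rose by a log2 fold change of 0.86 (95% confidence interval 0.71 to 1.00, edgeR adjusted p = 6.13e-17), and by 0.70 without DMSO replicate 1. *COL5A3* rose by 0.63 (95% confidence interval 0.45 to 0.82, edgeR adjusted p = 1.11e-08), and by 0.44 without DMSO replicate 1. Neither passed a log2 fold change of 1 under TMM scaling, and both did under *GAPDH* scaling, at 1.38 and 1.16. Exons of a gene on the opposite strand cover 3.98% of the exon length of *COL5A3* and 0.48% of that of *COL5A1*, and whether the counting used strand is not given in the sources used here.

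Because these rising type V genes have annotated start sites that RefSeq and GENCODE place at the same base, the 250 bases before each start are shown, 5′ to 3′ on the gene's strand (RefSeq, GRCh38.p14). Capitals mark the GC box (GGGCGG), the site known for SP1, and the CCAAT box (CCAAT), the site known for NF-Y, each searched on both strands, and no 2 matches overlap. The region of *COL5A1* is chr9:134641553-134641802 (plus strand) and that of *COL5A3* is chr19:10010505-10010754 (minus strand).
COL5A1: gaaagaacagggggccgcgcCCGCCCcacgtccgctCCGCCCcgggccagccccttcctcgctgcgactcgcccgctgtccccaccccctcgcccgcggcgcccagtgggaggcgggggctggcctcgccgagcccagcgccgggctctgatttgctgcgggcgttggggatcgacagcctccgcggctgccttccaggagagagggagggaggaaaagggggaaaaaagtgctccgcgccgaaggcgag
COL5A3: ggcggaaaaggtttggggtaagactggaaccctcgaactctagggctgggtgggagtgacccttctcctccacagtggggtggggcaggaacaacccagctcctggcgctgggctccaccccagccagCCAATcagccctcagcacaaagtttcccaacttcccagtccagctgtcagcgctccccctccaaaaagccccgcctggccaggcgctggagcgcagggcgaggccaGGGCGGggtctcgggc

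*COL5A1* has 2 GC boxes and no CCAAT box in this window, and *COL5A3* has 1 of each. Neither window holds the letters TATAAA. Among 35116 promoter windows of the same length, a GC box was found in 42.6%, a CCAAT box in 32.0%, and TATAAA in 10.7%. G and C make up 74.0% of the *COL5A1* window and 66.0% of the *COL5A3* window, against a median of 58.0% over all windows. RefSeq records matched 4 of the 9 genes by symbol, the others being *COL11A1* and *COL11A2*, whose recorded starts differ from the GENCODE gene start. *COL1A1*, *COL1A2*, *COL2A1*, *COL3A1*, and *COL5A2* had no entry.

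The type V chains thus shifted against one another. With DMSO, *COL5A1* and *COL5A2* had about equal read counts, at ratios of 0.933, 1.11, and 1.09, and with mocetinostat *COL5A1* had 2.70, 3.10, and 2.50 times as many reads. This 2.65-fold rise of the ratio had no overlap between treatments (exact permutation p = 0.1, adjusted p = 0.125), and leaving out any 1 sample gave log2 differences between 1.32 and 1.47. The ratio of *COL5A3* to *COL5A1* moved little, from 0.212, 0.233, and 0.234 to 0.189, 0.195, and 0.201, a 1.16-fold decrease, also without overlap (exact permutation p = 0.1, adjusted p = 0.125).

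**Figure D2:**
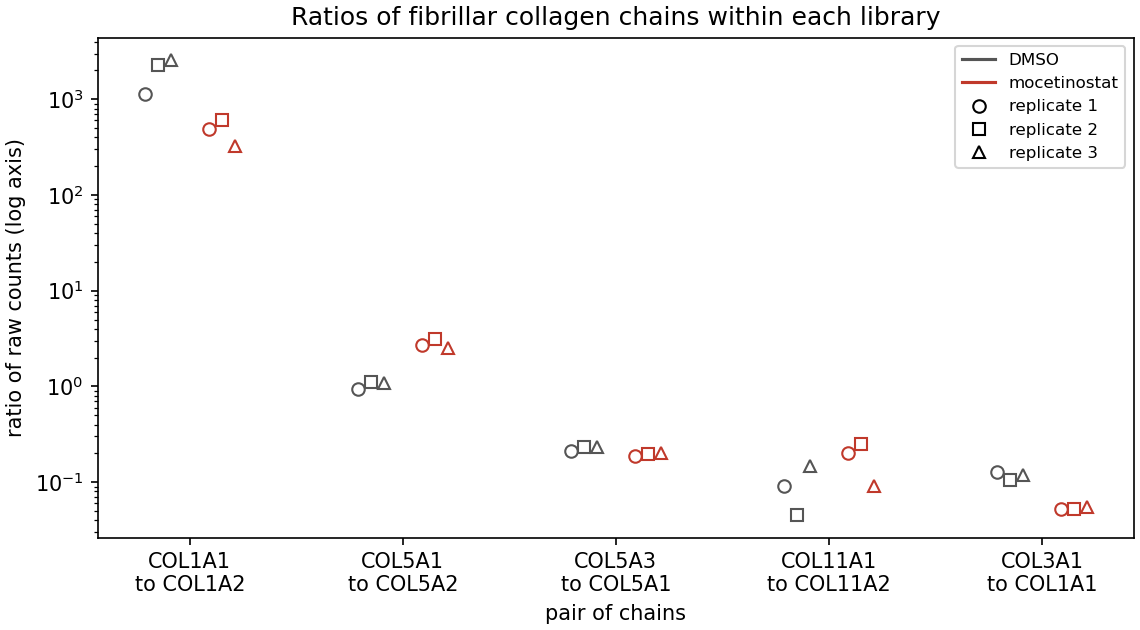
Ratio of raw counts of 2 chains (log axis) within each of the 6 libraries, for 5 pairs of fibrillar collagen genes, with color giving the treatment and marker shape the replicate. The ratio of *COL5A1* to *COL5A2* goes from about 1 to between 2.50 and 3.10, that of *COL1A1* to *COL1A2* falls from at least 1131 to at most 609.2, and only *COL11A1* to *COL11A2* overlaps between treatments.

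*COL2A1* (ENSG00000139219, chromosome 12 from 47972967 to 48004554, minus strand), the type II collagen gene and the main structural gene of cartilage fibrils, had the largest fold change of the 8 chains tested. The DMSO-treated samples gave 26, 7, and 19 counts and the mocetinostat-treated samples 185, 35, and 67, or 2.35, 1.46, and 2.80 CPM against 36.7, 21.7, and 27.8 CPM. The lowest treated sample exceeded the highest control by 18.9 CPM. The rise was 12.96-fold (log2 fold change 3.70, 95% confidence interval 3.16 to 4.23, edgeR adjusted p = 2.22e-20).

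Type XI collagen, which initiates and limits cartilage fibrils, was measured at low counts. *COL11A2* (ENSG00000204248, chromosome 6 from 33162681 to 33192499, minus strand) had raw counts of 33, 22, and 27 under DMSO, compared with 64, 16, and 22 under mocetinostat. Raw counts overlapped, while scaled to library size the levels were 2.99, 4.58, and 3.98 CPM against 12.7, 9.92, and 9.12 CPM and did not. The log2 fold change was 1.54 (95% confidence interval 0.89 to 2.19, edgeR adjusted p = 3.15e-05) and 1.33 without DMSO replicate 1, and glmTreat, which tests for a log2 fold change beyond 1, gave an adjusted p of 0.074. *COL11A1* (ENSG00000060718, chromosome 1 from 102876467 to 103108872, minus strand) had raw counts of 3, 1, and 4 under DMSO, compared with 13, 4, and 2 under mocetinostat.

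At this depth a change of *COL11A1* could not be settled. Its CPM values were 0.271, 0.208, and 0.589 with DMSO and 2.58, 2.48, and 0.829 with mocetinostat, which do not overlap, but mocetinostat replicate 3 rests on 2 reads. Without the expression filter, the log2 fold change was 2.16 (standard error 0.90, edgeR adjusted p = 0.0653), and DESeq2 gave 2.43 (adjusted p = 0.0667). *COL11A1* passed the filter in 4 of the 6 fits that left out 1 sample. There it passed only through mocetinostat replicates 1 and 2, so that its rise was built in. Leaving out DMSO replicates 1, 2, and 3 in turn gave edgeR adjusted p-values of 0.0348, 0.0187, and 0.00621. Leaving out mocetinostat replicate 3 gave 0.00212. The ratio of *COL11A1* to *COL11A2* ranged from 0.0455 to 0.148 with DMSO and from 0.0909 to 0.250 with mocetinostat and overlapped (exact permutation p = 0.2, adjusted p = 0.2).

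**Figure D3:**
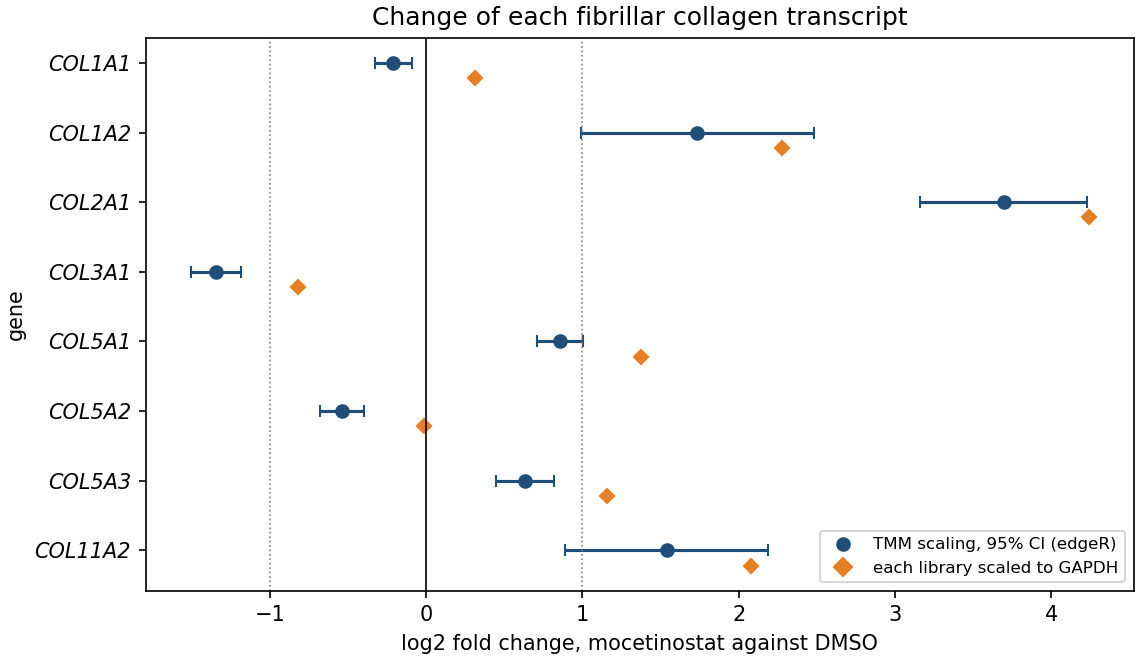
Log2 fold change of the 8 tested fibrillar collagen genes, mocetinostat against DMSO, with 95% confidence intervals from edgeR under TMM scaling (circles) and the value with each library scaled to *GAPDH* (diamonds), dotted lines marking -1 and 1. *COL2A1* lies farthest right at 3.70 and *COL3A1* farthest left at -1.35, and the *GAPDH* scaling moves *COL1A1* across 0 and *COL5A2* to -0.01.

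Levels of different chains are compared per kilobase of exon. With DMSO, *COL1A1* stood at 504.5 ± 53.7 CPM per kb (SD, n = 3), followed by *COL5A2* at 130.5 ± 13.0, *COL5A1* at 89.8 ± 15.6, *COL3A1* at 78.1 ± 6.03, and *COL5A3* at 33.7 ± 7.45 CPM per kb. The remaining 4 were below 1 CPM per kb, at 0.523 for *COL11A2*, 0.331 for *COL2A1*, 0.232 for *COL1A2*, and 0.0392 for *COL11A1*. Neighbours in this order whose samples overlapped were *COL5A1* and *COL3A1*, *COL11A2* and *COL2A1*, and *COL2A1* and *COL1A2*.

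With mocetinostat the order changed and no neighbours overlapped. *COL1A1* remained first, at 436.5 ± 21.5 CPM per kb, and was followed by *COL5A1* at 162.5 ± 11.4, *COL5A2* at 89.9 ± 3.55, *COL5A3* at 52.2 ± 3.46, and *COL3A1* at 30.8 ± 1.19 CPM per kb. *COL2A1* moved ahead of *COL11A2*, at 4.31 ± 1.13 against 1.44 ± 0.255 CPM per kb, with *COL1A2* at 0.812 ± 0.232 and *COL11A1* at 0.216 ± 0.108 CPM per kb. After treatment, *COL2A1* thus remained below every one of the 5 abundant chains in every sample.

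The 9 genes together took 0.637%, 0.740%, and 0.777% of all counts under DMSO, compared with 0.685%, 0.734%, and 0.676% under mocetinostat, and the groups overlapped. Within that total, type I chains went from 62.6% ± 1.11 to 56.2% ± 0.286 (SD, n = 3), type III from 7.30% ± 0.618 to 2.97% ± 0.0958, and type V from 30.0% ± 1.11 to 40.3% ± 0.178. *COL5A1* alone went from 13.7% ± 0.892 to 25.8% ± 0.687 of the fibrillar collagen counts. The cartilage types II and XI went from 0.0881% ± 0.00481 to 0.591% ± 0.148, so that they remained under 1% of the fibrillar collagen reads in all 6 samples. These shares are given as a description, with no test.

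**Figure D4:**
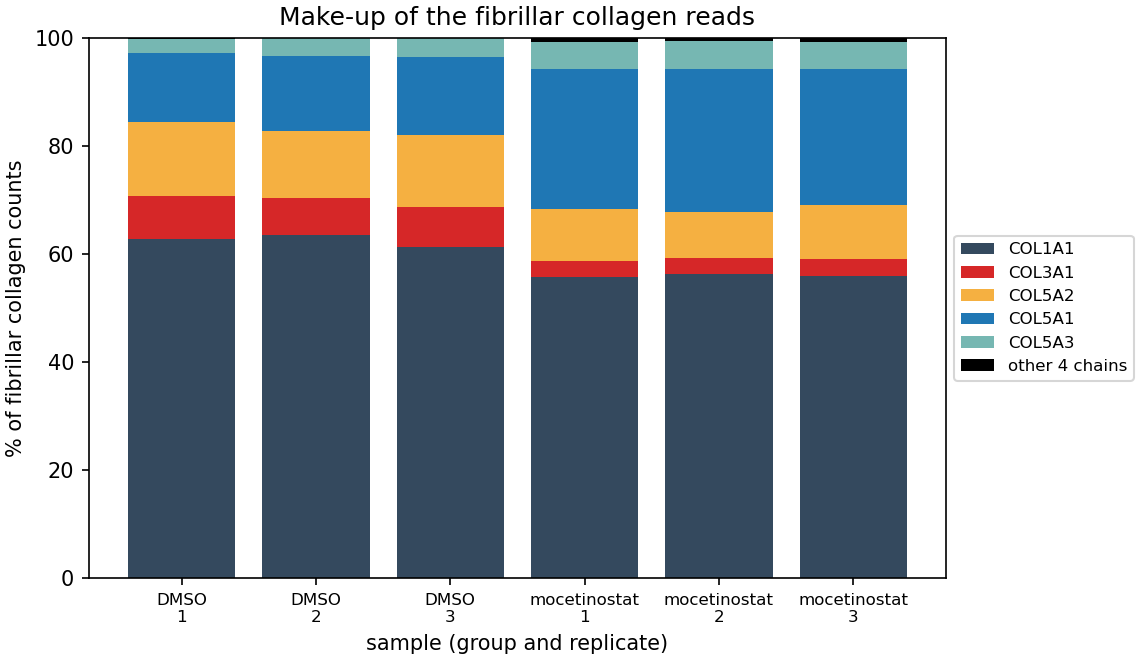
Share of the summed counts of the 9 fibrillar collagen genes held by each of the 5 abundant chains and by the other 4 chains together, for each sample. *COL5A1* grows from between 12.8% and 14.5% to between 25.1% and 26.5%, and *COL3A1* shrinks from at least 6.71% to at most 3.08%.

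Type XXIV and XXVII chains also belong to the fibrillar family. *COL27A1*, a cartilage fibril chain, fell from 140.2 ± 27.8 to 70.1 ± 10.3 CPM (mean ± SD of 3 samples), a log2 difference of -0.96 (standard error 0.12, edgeR adjusted p = 5.9e-11). It was lower in every treated sample than in any control. The log2 difference was -0.43 (adjusted p = 0.00562) under *GAPDH* scaling and -1.125 without DMSO replicate 1. *COL24A1* had raw counts of 7, 1, and 2 under DMSO, compared with 9, 2, and 3 under mocetinostat, was not tested, and had an edgeR adjusted p of 0.276 without the expression filter. *COL27A1* and *COL2A1* thus moved in opposite directions.

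Fibrillar collagens are made as procollagens that need dedicated chaperones, hydroxylases, and proteases. The counts for each list are to be read against all genes tested, of which 32.9% were higher and 31.4% lower under TMM scaling and 55.2% higher and 9.82% lower under *GAPDH* scaling, and no list was tested against other genes. A gene low with DMSO passed the expression filter only where it was higher with mocetinostat, so the rise of such genes was built in. Of 19 genes for chaperones and modifying enzymes, 18 were tested, of which 4 rose, 5 fell, and 9 did not pass the test, at a median log2 difference of 0.05. Under *GAPDH* scaling 14 were higher and 2 lower, and with DESeq2 3 were higher and 5 lower. *SERPINH1*, which encodes the collagen chaperone HSP47, fell from 209.9 ± 6.17 to 32.5 ± 3.29 CPM (mean ± SD of 3 samples), a log2 difference of -2.66 (edgeR adjusted p = 1e-32), and of -2.12 under *GAPDH* scaling. *P3H2*, a prolyl 3-hydroxylase, rose by 1.17 (adjusted p = 2.68e-16). Of 15 genes for procollagen secretion and propeptide cleavage, 12 were tested, with 5 higher and 3 lower, or 9 and 0 under *GAPDH* scaling and 4 and 3 with DESeq2. Among these, the related proteases *TLL2* and *TLL1* changed by 4.42 (adjusted p = 5.15e-14) and -0.80 (adjusted p = 0.000467), the latter not called under *GAPDH* scaling (adjusted p = 0.291). *TLL2* was near the floor with DMSO, at 8, 3, and 2 counts, compared with 63, 22, and 29 with mocetinostat. Of the 5 that were higher, *TLL2* and *ADAMTS14* (29, 7, and 18 counts with DMSO) passed the filter only with the mocetinostat-treated samples.

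The next lists act on the finished fibril. Of 20 genes for fibril assembly and crosslinking, 12 were tested, of which 10 rose and 1 fell, at a median log2 difference of 1.08, and 10 and 0 under *GAPDH* scaling. The count and median include *LOXL4*, *LUM*, *TNXB*, *COMP*, and *MATN3*, with DMSO means of 0.823, 2.01, 0.912, 0.484, and 3.42 CPM. These passed the expression filter only with the mocetinostat-treated samples. *FN1*, the fibronectin gene, rose by 0.64 (edgeR adjusted p = 1.41e-20), and *BGN*, the small proteoglycan biglycan, fell by 0.74 on the log2 scale (adjusted p = 2.97e-09, and 0.101 under *GAPDH* scaling). Of 10 genes for collagen degradation, 9 were tested, with 6 higher and 1 lower, or 7 and 1 under *GAPDH* scaling. The collagenase *MMP13*, which cuts type II collagen, rose by 4.39 (adjusted p = 4.98e-34), and the membrane-bound collagenase *MMP14* was at -0.90 (adjusted p = 8.33e-10). *MMP13* held 54, 9, and 40 counts with DMSO and passed the expression filter only with the mocetinostat-treated samples. Of 11 receptor genes, 8 were tested (7 higher and 1 lower under *GAPDH* scaling, 3 and 1 with DESeq2), with 4 higher under TMM scaling, including the integrin chain *ITGA2* at 2.14 (adjusted p = 6.52e-26), and 1 lower, the collagen-binding kinase *DDR2* at -1.02 (adjusted p = 8.24e-11).

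Among 26 regulators known for fibrillar collagen genes, 23 were tested, of which 8 rose and 12 fell under TMM scaling. Under *GAPDH* scaling, which shifts all genes upward, 12 were higher and 5 lower. The 8 that rose include *SOX5* and *CIITA*, with DMSO means of 0.276 and 1.14 CPM. Both passed the expression filter only with the mocetinostat-treated samples. The smallest p in each direction belonged to *SNAI1*, a repressor of *COL2A1* in chondrocytes, at 1.82 (edgeR adjusted p = 2.72e-24), and to *ZNF469*, at -2.18 (adjusted p = 7.55e-28), and both kept their direction under *GAPDH* scaling. *SOX9*, the factor that switches on *COL2A1* and *COL11A2*, rose by 0.77 (adjusted p = 2.51e-10).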

How the data were processed

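RNA-Seq was analyzed in 6 samples, 3 per treatment. According to the study's methods and the submitters' processing notes, the authors removed adapters and ribosomal RNA reads, aligned to GRCh38 with STAR 2.6.1d, and deposited raw counts of reads per gene from featureCounts 1.6.4, unnormalized. Every column was matched by name.

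Genes were filtered with filterByExpr (minimum count 10), scaled by TMM, and tested with the quasi-likelihood method of edgeR 4.0.16 (R 4.3.3), with treatment as the only term. Confidence intervals (95%) used the standard error implied by the quasi-likelihood F. DESeq2 1.42.0 was an alternative, as were other scalings, filters, thinning, glmTreat, and leaving out samples. Chain ratios used counts plus 0.5 and exact permutation tests (scipy 1.17.1). The steps were tested on simulated counts. Positions, exons, and lengths (union of exons) are from GENCODE 44, which matched 99.5% of gene identifiers.

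The genes and lists were chosen with earlier results of these data known. The genes named are the 9 chains, *COL24A1*, *COL27A1*, *GAPDH*, the gene of each list with the smallest p in each direction, named cell type markers, and the nearest patterns. List genes that rose but passed the filter only with the mocetinostat-treated samples are named as well. Replicates are described by the study as independent experiments. Scaling alternatives for the pathway lists and the thinned comparison of replicates were added after seeing the data.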

Additional observations from a re-analysis of the deposited data

How the results depend on the processing

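The 8 tested chains were refitted under 15 alternatives. *COL1A2*, *COL2A1* (tested in 14), and *COL3A1* kept their direction and an adjusted p under 0.05 in all of them. Under *GAPDH* scaling, which shifts the median gene by 0.54, *COL1A1* turned to 0.31, 1 chain was lower at an adjusted p under 0.05, 5 were upregulated, 0 were downregulated, and 4425 and 284 of all genes were upregulated and downregulated in place of 2827 and 1142. With glmTreat, 2 chains were higher and 1 lower, and 465 of all genes were downregulated. With at least 10 counts in every sample, *COL2A1* was not tested, and 1620 of all genes were upregulated and 704 downregulated, of fewer genes tested, while 2120 were downregulated without a filter. Divided by exon length, the share of type I changed by -4.12 percentage points (-6.44 in counts), type III by -5.41 (-4.33), type V by 8.86 (10.3), and types II and XI by 0.662 (0.502). With each sample left out in turn, 5 to 6 chains were higher, 3 lower, 3 to 4 upregulated, and 1 downregulated, the additional chain being *COL11A1*. That chain passed the filter only through mocetinostat replicates 1 and 2, so that its rise in those fits was built in. With the replicate number as a block, 5 chains were higher and 3 lower, and 2798 and 1133 of all genes were called, and the block changed no call among the chains. Deviations of same-numbered samples from their group means correlated at 0.04, 0.04, and -0.05, and those of other pairs at -0.085 to 0.066. No shared deviation was seen, which cannot tell whether same-numbered samples came from the same experiment. The precision of *COL1A2*, *COL2A1*, *COL11A1*, and *COL11A2*, each with under 40 counts in at least 1 treated library, is limited by depth.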

Other observations

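Genes whose pattern over the 6 samples was most like that of a collagen were found by the root mean square difference of log2 CPM, after subtracting each gene's own mean, among 10256 genes with a mean of at least 10 CPM. Nearest to *COL2A1* were *SLC17A7*, a vesicular glutamate transporter gene, at 0.15, *CGN*, which encodes the tight junction protein cingulin, at 0.21, and *CACNA1H*, a calcium channel gene, at 0.235. These went from 1.27 to 19.0 CPM, from 4.99 to 62.8 CPM, and from 5.48 to 53.4 CPM. Nearest to *COL1A1* were *ILVBL* at 0.02, *SUPT6H* at 0.03, and *HSPB1* at 0.04, whose log2 fold changes of -0.25, -0.22, and -0.18 stood beside -0.21 for *COL1A1*. With 2 treatments and 3 samples each, the measure mainly reads the size of the treatment difference.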
